A study of Mus musculus with 8 samples.

Results

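The lungs of the 2 ODNcap-F mice were set against those of the 2 Ctrl-F mice, by the sample titles, which takes 4 of the 8 arrays in the study. All mice were female BALB/c, and lung RNA was taken on Day 70 of feeding, with 1 animal per array. The Ctrl-F mice ate standard feed. The ODNcap-F mice ate feed that held CpG-ODN, a synthetic DNA agonist of the receptor TLR9, enclosed in particles of carbonate apatite. Mice of both groups were immunized with ovalbumin (OVA) by intraperitoneal injection with alum and then inhaled OVA, so by design the feed was what differed. The paper reported less airway inflammation and less goblet cell staining in ODNcap-F than in Ctrl-F. Those are measures of lavage fluid and lung sections, while the values here are RNA levels. The paper also measured the RNA of some lung genes by quantitative PCR in more mice, as given below for Ifng, Il22ra1 and Extl3. The other 4 arrays held 2 Cap-F mice, which ate the particles without ODN and received OVA in the same way, and 2 NT mice on standard feed without OVA. A list of heart and striated muscle genes and Reg3g were set aside and enter here only as values beside results they move with. The list does not hold every gene of muscle, and Mlip, for one, is named below.

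In the allergic airway, mucous (goblet) cells and club cells secrete mucins, trefoil factors and secretoglobins, and ciliated cells move the mucus with axonemes built of dynein arms and tektins. IL-4, IL-5 and IL-13 of type 2 lymphocytes drive eosinophil recruitment and mucus production. TLR9 recognizes unmethylated CpG DNA in endosomes and signals through MyD88, IRF7 and NF-kB towards interferons and IL-12, which favor Th1 responses.

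Levels are log2 array intensities after quantile normalization, and a difference is the ODNcap-F mean minus the Ctrl-F mean on that scale, where 1 is a 2-fold change. A gene is called separated when the ranges of the 2 feeds did not overlap. Some values are also given after background correction by normexp, with 50 added to each corrected intensity. That offset by itself shrinks the log2 differences of dim genes. Probes well above background in both mice of at least 1 group were kept, 37116 of 56605, and they stand for 28992 genes or transcripts, of which 16571 have a RefSeq name. Between 61.3% and 65.0% of the probes of an array were well above background. All 18 alveolar type 2, 15 alveolar type 1 and 17 capillary endothelial marker genes kept were above background on all 4 arrays. The number of arrays limits the precision, and exact permutation of 2 against 2 mice gives no two-sided p below 0.333. On the slide, row 1 held NT and Ctrl-F and row 2 held Cap-F and ODNcap-F. For ODNcap-F or Cap-F against Ctrl-F, an effect of the row cannot be told apart from that of the feed.

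Of the gene lists examined, those of mucous, club and ciliated cells gave the most complete separation between the feeds. Mucous cell genes were higher in both ODNcap-F mice for 15 of 16 members, club cell genes for 17 of 18 and ciliated cell genes for 17 of 19, while cell cycle genes were lower in both for 16 of 23. Of all genes, 17% were separated and higher and 18.6% separated and lower. The fat cell genes Car3 and Cfd had large differences that rested in part on 1 Ctrl-F mouse. Type 2 cytokine, eosinophil and Tlr9 pathway genes had median differences near 0. No single gene passed the test: limma, a linear model that shrinks each probe's variance towards a common value, called 0 of 28992 genes (0%) at an adjusted p under 0.05 with a change over 2-fold, and the smallest adjusted p was 0.0881.

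Without regard to size, 4928 genes (17%) were separated with ODNcap-F higher and 5384 (18.6%) with ODNcap-F lower, and these shares are the background for the counts that follow. Separation with more than a 2-fold difference was found for 183 genes (0.631%) on the higher side and 100 (0.345%) on the lower side. At an unadjusted p under 0.05 in limma, 1071 genes (3.69%) were higher and 895 (3.09%) lower, whatever the size of the difference. The local-pooled-error test, which takes its error from the replicate differences of probes that are about as bright, called 93 genes (0.321%) higher and 40 (0.138%) lower at more than 2-fold. Many of the separated genes beyond 2-fold were dim. Only 62 of the 183 higher genes and 24 of the 100 lower genes were above background on all 4 arrays, against 89.8% of all genes kept. Of the 100 lower genes, 77 carry no RefSeq name, and of the 183 higher genes 34 belong to the listed muscle genes and Reg3g that were set aside. Muscle genes outside that list, such as Mlip, are not among the 34.

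**Figure D1:**
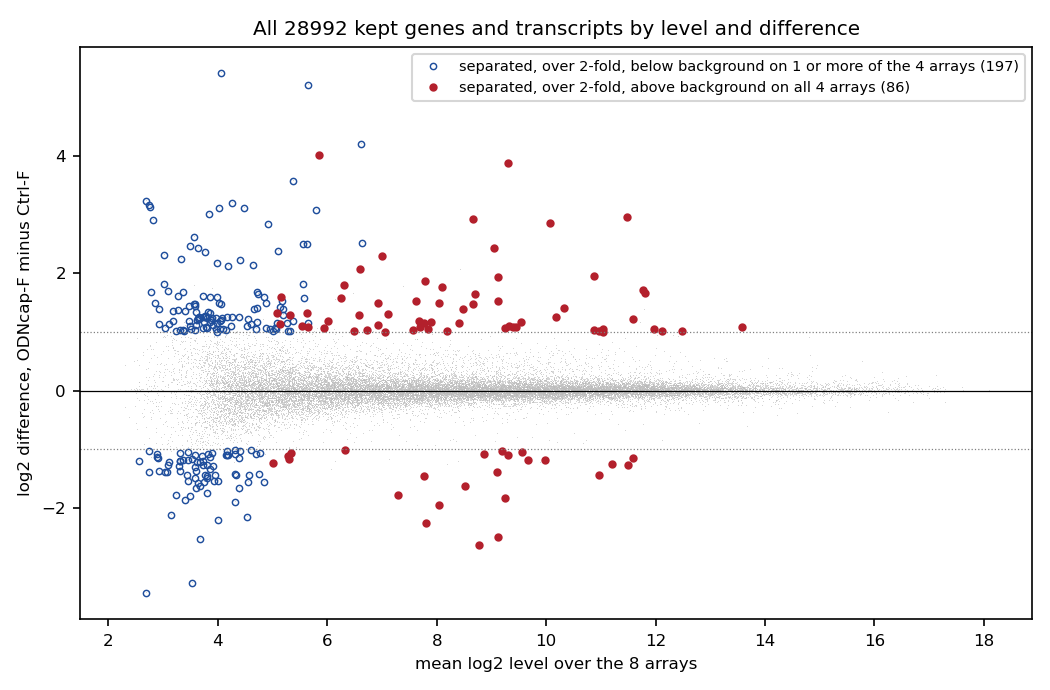
Each point is 1 of 28992 genes or transcripts, with its mean log2 level over the 8 arrays on the x axis and the log2 difference between the ODNcap-F and Ctrl-F means on the y axis. Of the 283 separated genes beyond 2-fold, the 197 open circles were below background on 1 or more of the 4 arrays and sit mostly at low levels, and the 86 filled circles were above background on all 4; dotted lines mark a 2-fold difference.

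Genes of mucous cells were higher in the ODNcap-F lungs across nearly the whole list. Agr2, which folds mucins in the endoplasmic reticulum, stood at log2 levels of 11.08 and 10.51 in the Ctrl-F mice and at 11.84 and 12.55 in the ODNcap-F mice. That difference of 1.40 (standard error 0.47, adjusted p = 0.740 in limma) was the largest of the list. Muc5b, a gel-forming mucin of the airway, measured 14.21 and 13.60 in Ctrl-F and 14.68 and 15.32 in ODNcap-F, a difference of 1.09 ± 0.54 (SE). For Muc5ac, the mucin induced by allergen, the levels were 10.54 and 9.93 against 10.88 and 11.71. In these 3 genes the lower ODNcap-F mouse, mouse 1 each time, lay above the higher Ctrl-F mouse by less than 1 on the log2 scale, and mouse 2 lay further away. Tff2, a trefoil peptide that stabilizes mucus, differed by 1.25 ± 0.58 (SE) and the mucin glycosyltransferase Gcnt3 by 1.14 ± 0.54, or 0.63 after background correction by normexp. Fcgbp and Bpifb1, secreted with airway mucus, differed by 1.06 and 1.02. The transcription factors Foxa3 and Spdef, which drive the mucous cell program, were higher by 0.72 and 0.63, with both groups apart. Clca1, a secreted protein of goblet cells, was already at 16.91 and 16.68 in Ctrl-F and reached 17.06 and 17.23 in ODNcap-F. Slc26a4, the anion exchanger pendrin, was the single member with overlapping groups, at a difference of -0.06.

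Over the 16 mucous cell genes the median difference was 0.86, beside -0.01 over all genes, and 7 members were separated by more than 2-fold, where 0.631% of all genes were. The adjusted p of the members lay between 0.740 and 0.962 in limma. The local-pooled-error test called 7 of them higher by more than 2-fold, where it called 0.321% of all genes. Since the members were measured in the same 4 mice, they are not independent of one another. The mean level of the list was 10.96 and 10.70 in the Ctrl-F mice and 11.30 and 11.83 in the ODNcap-F mice. With ODNcap-F mouse 1 left out the median was 1.26, and with mouse 2 left out it was 0.41, so that mouse 2 carries much of the size but not the direction. In NT, without allergen, the list stood at 6.76 and 7.19, far below every OVA-treated mouse.

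**Figure D2:**
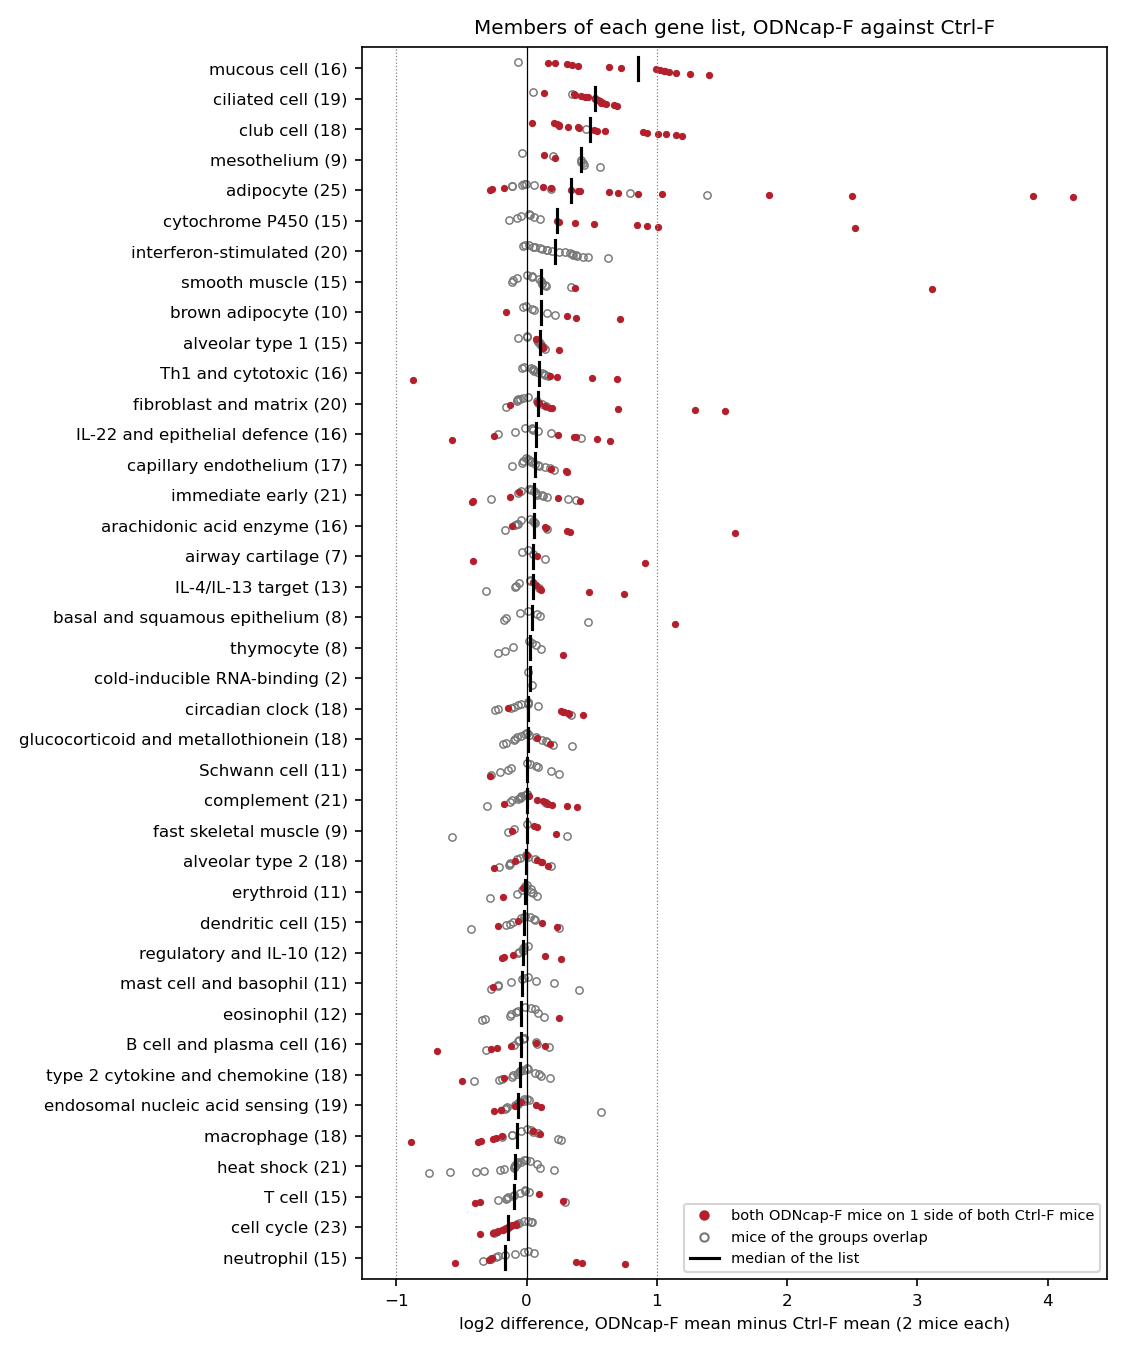
Each row is a gene list with its number of kept members in parentheses, each circle is 1 member and its log2 difference between ODNcap-F and Ctrl-F, and the black bar is the median of the list. Filled circles are separated genes and open circles are genes whose mice overlap; the mucous, ciliated and club cell lists are at the top with 15 of 16, 17 of 19 and 17 of 18 members separated and higher, and the interferon-stimulated list shows no separated member.

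Club cell genes were likewise higher in the ODNcap-F lungs, 18 of 18 by their means and 17 with separated mice, where 17% of all genes were. The carboxylesterase Ces1f measured 7.01 and 6.75 in Ctrl-F and 7.53 and 8.53 in ODNcap-F, a difference of 1.15 ± 0.48 (SE), and the sulfotransferase Sult1d1 differed by 1.07, which was 0.44 after background correction by normexp and 0.49 without ODNcap-F mouse 2. Cyp2a4, a cytochrome P450, stood at 10.24 and 9.77 against 10.34 and 11.68, a difference of 1.01. ODNcap-F mouse 1 lay just above the Ctrl-F mice for this gene, and without mouse 2 the difference was 0.34. Cyp2a5 showed levels of 11.24 and 10.83 against 11.28 and 12.64, but Cyp2a4 and Cyp2a5 are near-identical paralogs and their probes may not tell them apart. Pon1, a paraoxonase, had the smallest adjusted p of the list, 0.544 in limma, at levels of 5.52 and 5.73 against 6.29 and 6.17. The secretoglobins differed unequally. Scgb3a1 measured 14.97 and 14.68 in Ctrl-F and 15.40 and 16.02 in ODNcap-F, and Scgb3a2 differed by 0.40. Scgb1a1, the defining secretion of club cells, differed by only 0.04 (17.60 and 17.52 against 17.60 and 17.60).

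The median difference of the club cell list was 0.49. It was 0.64 without ODNcap-F mouse 1 and 0.26 without mouse 2. The list mean was 11.62 and 11.58 in Ctrl-F and 11.90 and 12.46 in ODNcap-F, and thus stayed below the NT mice at 13.39 and 13.73. Mucous cell genes and club cell genes therefore lay on opposite sides of NT. In both lists ODNcap-F had the higher mean level of the 2 feeds.

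All 19 ciliated cell genes were higher in ODNcap-F by their means, from 0.05 for Mcidas to 0.69 for Sntn. Sntn, a protein of the ciliary tip, measured 6.63 and 6.33 in Ctrl-F and 6.98 and 7.36 in ODNcap-F. Spag6l, part of the central pair of the axoneme, stood at 8.66 and 8.50 against 9.11 and 9.39, a difference of 0.67 ± 0.25 (SE, adjusted p = 0.740 in limma). The outer dynein arm heavy chain Dnah9 had levels of 9.14 and 8.98 against 9.53 and 9.81. Sntn, Spag6l and Dnah9 each had the lower ODNcap-F mouse above the higher Ctrl-F mouse. The tektins Tekt4 and Tekt1, which line the doublet microtubules, differed by 0.59 and 0.57, and Foxj1, the transcription factor that switches on the motile cilium genes, by 0.47. Hydin and Mcidas were the 2 members with overlapping groups, and 17 were separated and higher, where 17% of all genes were. None of the 19 differed by more than 2-fold, and the median was 0.53. The list mean was 9.38 and 9.20 in Ctrl-F, 9.63 and 9.90 in ODNcap-F and 10.13 and 10.23 in NT.

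The promoter windows of the ciliated cell genes, 300 bases from RefSeq, were searched for the letters GTTGCC on both strands, the core that RFX factors of ciliated cells recognize. A window was held for 15 of the 19 genes, and 8 of them (53.3%) had these letters in any of their windows, against 12.5% of all 32851 windows. The first share counts genes and the second counts windows, so they are not of the same unit. The windows of the 2 separated members with the largest differences that hold the letters are shown 5′ to 3′, with the letters in capitals, on the plus strand at chr14:13670626-13670925 for Sntn and on the minus strand at chr16:16829314-16829613 for Spag6l (GRCm38.p6). The match is a description of the sequence of genes that were listed by cell type, and it does not bear on the feed.
Sntn: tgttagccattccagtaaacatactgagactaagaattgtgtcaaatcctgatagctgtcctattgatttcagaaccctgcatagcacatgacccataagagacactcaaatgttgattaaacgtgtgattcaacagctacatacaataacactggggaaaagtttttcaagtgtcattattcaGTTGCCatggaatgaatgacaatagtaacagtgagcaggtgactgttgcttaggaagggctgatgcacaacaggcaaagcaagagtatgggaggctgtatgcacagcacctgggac
Spag6l: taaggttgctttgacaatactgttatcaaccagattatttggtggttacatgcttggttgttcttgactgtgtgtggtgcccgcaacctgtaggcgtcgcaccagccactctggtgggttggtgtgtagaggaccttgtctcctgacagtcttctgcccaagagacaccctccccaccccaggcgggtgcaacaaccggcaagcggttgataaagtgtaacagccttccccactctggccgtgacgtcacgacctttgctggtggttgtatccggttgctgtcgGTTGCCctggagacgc

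**Figure D3:**
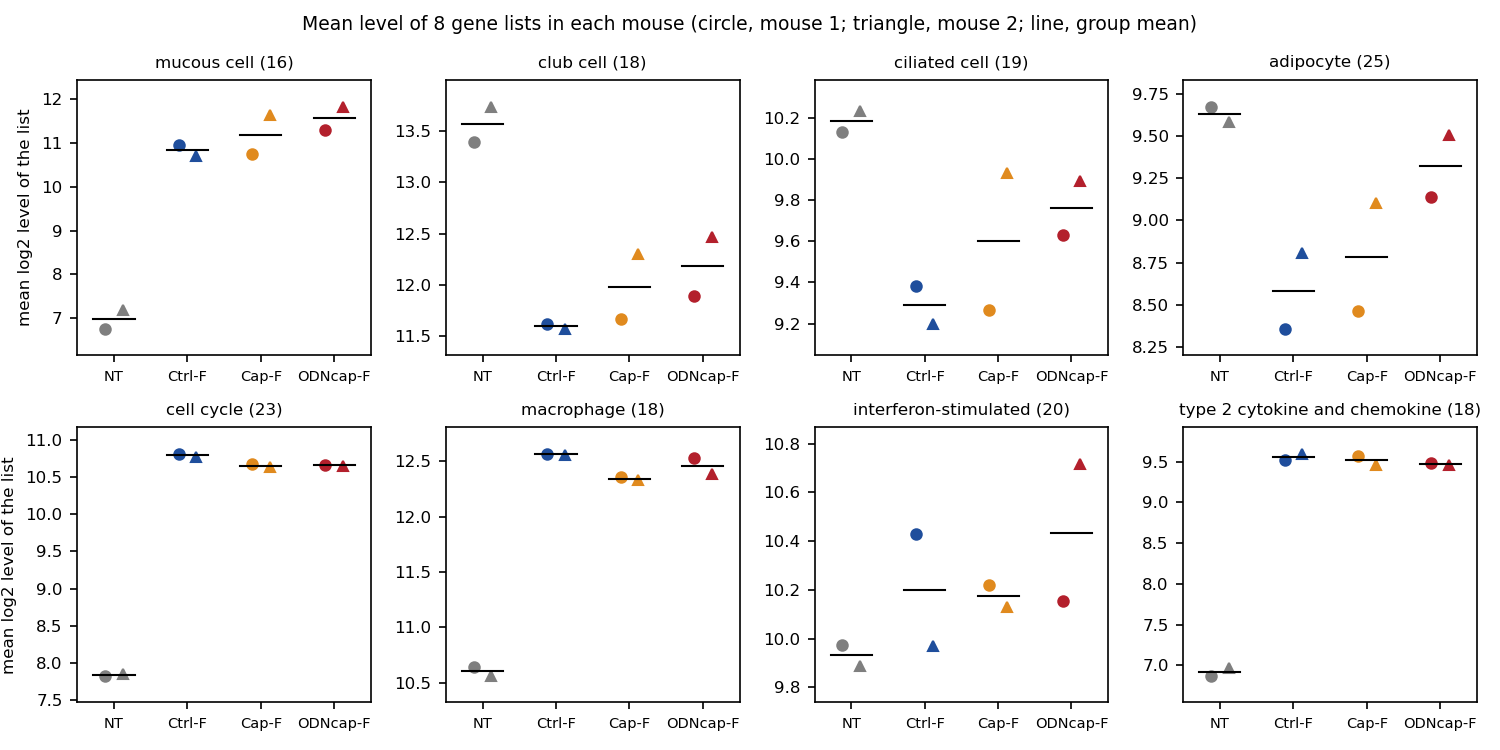
Each panel gives the mean log2 level of 1 gene list in each of the 8 mice by group, with the number of genes in parentheses, circles for mouse 1, triangles for mouse 2 and a line for the group mean; the y axes differ between panels and do not start at 0. For the mucous, club and ciliated cell lists ODNcap-F lies above Ctrl-F without overlap, Cap-F mouse 1 lies near Ctrl-F and Cap-F mouse 2 near ODNcap-F.

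The Cap-F mice, which ate particles without ODN, differed between themselves in these lists. For the mucous cell list Cap-F mouse 1 had a mean level of 10.74 and mouse 2 of 11.63, for the club cell list 11.67 and 12.30, and for the ciliated cell list 9.27 and 9.93. Cap-F mouse 2 thus fell inside the range of the ODNcap-F mice for the mucous and club cell lists and just above it for the ciliated list, and mouse 1 stayed close to Ctrl-F. A comparison of Cap-F with Ctrl-F uses the same control mice, so the values are given side by side only. Markers of heart and striated muscle also had higher mean levels in ODNcap-F and in mouse 2 of Cap-F than in Ctrl-F and in mouse 1 of Cap-F. Their mean level over 87 kept genes was 6.76 and 7.05 in Ctrl-F, 6.73 and 7.81 in Cap-F and 7.64 and 8.05 in ODNcap-F, with summed signals of 57748 to 62088 in Ctrl-F and 73580 to 88045 in ODNcap-F. Of these 87 genes 54 were separated and higher in ODNcap-F and 0 lower, where 17% and 18.6% of all genes were. Of the 87, 12 were not above background in either Ctrl-F mouse. In whole lung RNA, fewer cells of a type and less RNA per cell cannot be told apart, and the part of muscle tissue in the differences of the epithelial lists was not tested.

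Some genes of fat cells differed by large amounts, but Ctrl-F mouse 1 was far lower than Ctrl-F mouse 2 for several of them. Cfd, the serine protease adipsin (complement factor D), measured 5.17 and 8.27 in Ctrl-F and 10.11 and 11.10 in ODNcap-F, a difference of 3.88 ± 1.33 (SE, adjusted p = 0.740 in limma) that was 2.33 without Ctrl-F mouse 1. Car3, a carbonic anhydrase abundant in fat, was above background in only 1 of the Ctrl-F mice, at 2.18 and 5.52 against 7.39 and 8.70 in ODNcap-F. Its difference was 4.20, but 2.53 without Ctrl-F mouse 1 and 2.02 after background correction by normexp. Adipoq, the hormone adiponectin, was not above background in either Ctrl-F mouse and stood at 6.03 and 7.12 in ODNcap-F, at least 5.66-fold higher on these values. Its own Ctrl-F values, 4.03 and 4.12, lay above the lowest value that counted as above background and so set this bound. The difference of 2.50 in log2 values was 2.46 without Ctrl-F mouse 1 but 0.98 after background correction by normexp. The lipid droplet genes Cidec and Plin4 differed by 1.86 and 1.04, with levels for Cidec of 6.15 and 5.94 against 7.44 and 8.38. The fatty acid carrier Fabp4, at 10.59 and 10.77 against 11.18 and 11.59, and the lipid synthesis regulator Thrsp, with a difference of 0.85, were separated as well. In contrast, Pparg, the main transcription factor of fat cells, differed by -0.28 with both groups apart, and the lipid enzymes Fasn, Pnpla2 and Lpl differed by -0.01, -0.02 and -0.11 with overlapping mice. These lipid genes are also used by other lung cells.

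Of the 25 fat cell genes 13 were separated and higher and 3 separated and lower, where 17% and 18.6% of all genes were. Higher by more than 2-fold with separated mice were 5 of them, where 0.631% of all genes were. The median was 0.34 and became 0.11 without Ctrl-F mouse 1. The list mean was 8.36 and 8.80 in Ctrl-F, 9.14 and 9.51 in ODNcap-F, 8.47 and 9.11 in Cap-F and 9.67 and 9.58 in NT. Cyp2e1, a cytochrome P450 abundant in fat and liver, showed a like order, at 3.89 and 5.20 in Ctrl-F and 6.85 and 7.28 in ODNcap-F, with only 1 Ctrl-F mouse above background, and its difference of 2.52 was 1.15 after normexp. Brown fat markers differed less, with Cidea at 0.71 and a list median of 0.11. For mesothelium the median was 0.42, but it was -0.01 without Ctrl-F mouse 2. In that list 2 of 9 members were separated and higher, where 17% of all genes were. Schwann cell, thymocyte, fast skeletal muscle, erythroid and airway cartilage genes had medians between -0.01 and 0.05. Among these, Chad, a cartilage matrix protein, was higher by 0.91 and Comp differed by -0.41, both with separated groups.

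**Figure D4:**
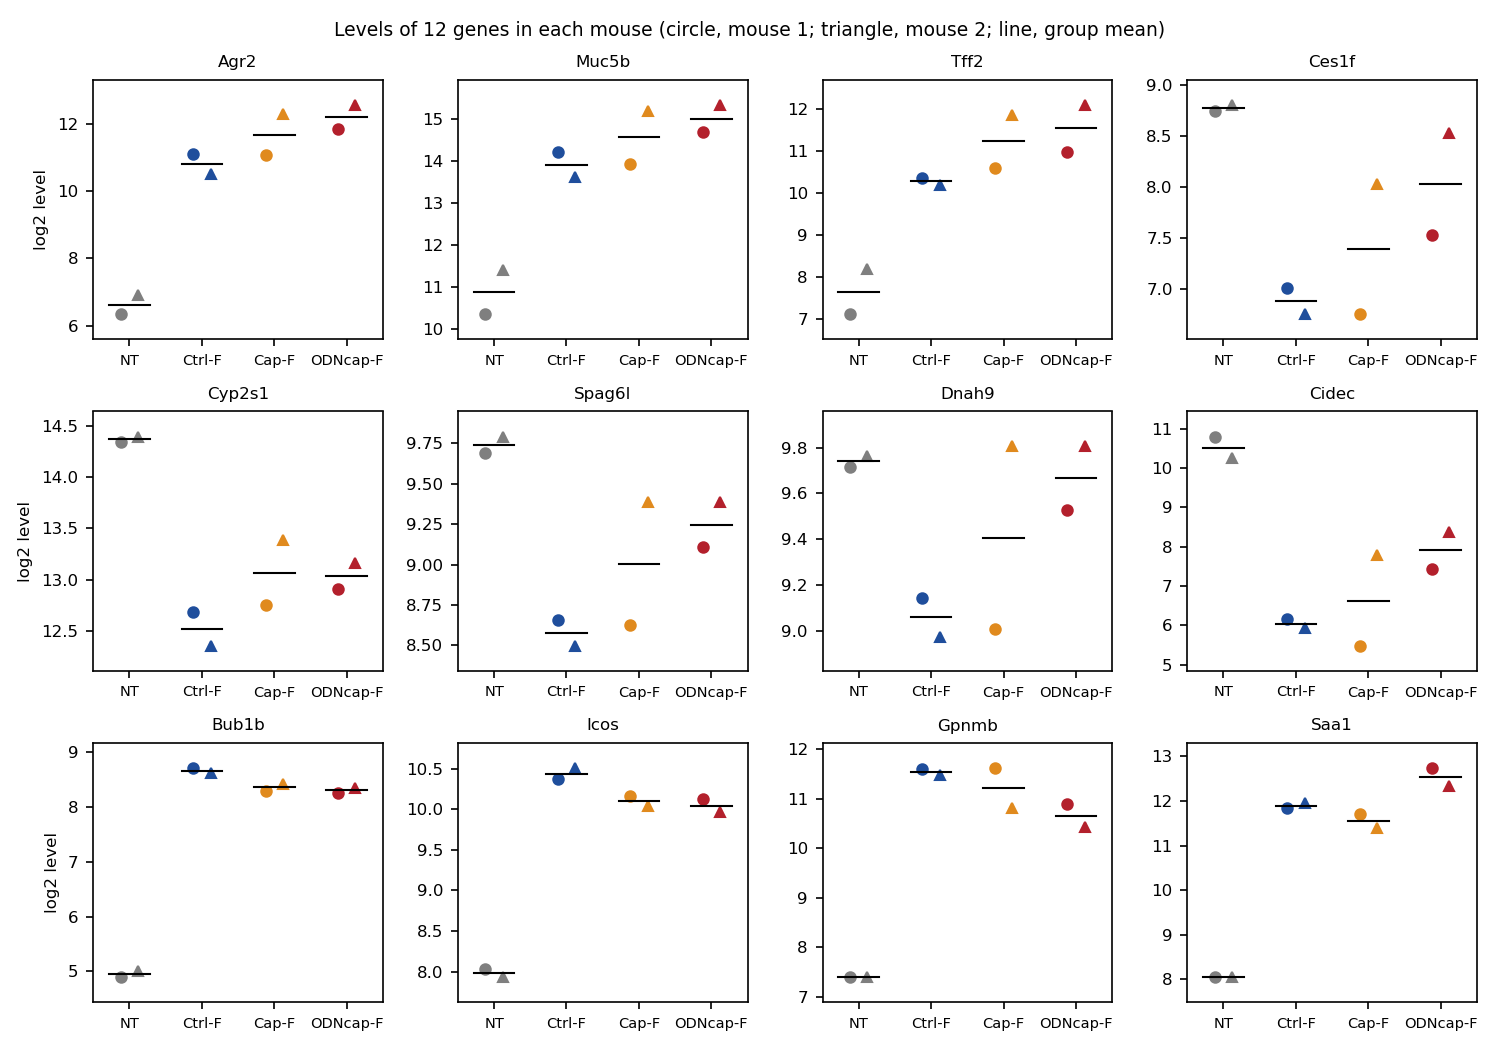
Each panel gives the log2 level of 1 gene in each of the 8 mice by group, with circles for mouse 1, triangles for mouse 2 and a line for the group mean; the y axes differ between panels and do not start at 0. Agr2, Muc5b, Tff2, Ces1f, Cyp2s1, Spag6l, Dnah9, Cidec and Saa1 show higher levels in ODNcap-F without overlap, and Bub1b, Icos and Gpnmb show lower ones.

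Type 2 cytokine genes had small differences between the feeds, with a few targets of IL-4 and IL-13 higher in ODNcap-F. Il4 measured 9.11 and 9.28 in Ctrl-F and 9.16 and 9.14 in ODNcap-F, a difference of -0.04 ± 0.12 (SE). Il13, the cytokine that drives mucus production, was at 5.05 and 5.30 against 4.73 and 4.63, a difference of -0.50 ± 0.17 (SE, adjusted p = 0.740 in limma) with separated groups. It was dim, and background correction by normexp brought the difference to -0.12. Il5, which sustains eosinophils, had levels of 6.23 and 6.77 against 5.90 and 6.30, so that the mice overlapped. The eosinophil-attracting chemokines Ccl11 and Ccl24 differed by 0.11 and -0.06. Among 18 type 2 cytokine and chemokine genes 6 were higher and 12 lower by their means, with a median of -0.05. Of these, 2 were separated and lower, Il13 and the chemokine receptor Ccr8, and 0 separated and higher. Over all genes 18.6% were separated and lower and 17% separated and higher. Of 13 targets of IL-4 and IL-13, 6 were separated and higher and 0 lower, where 17% of all genes were separated on the higher side, with a median of 0.05. Chil4, a chitinase-like protein, had the largest difference of them, from 13.18 and 13.24 to 13.57 and 14.34, and the lectin Clec10a of macrophages and dendritic cells differed by 0.48. Eosinophil genes had a median of -0.04. Epx, the eosinophil peroxidase, was at 8.22 and 8.55 in Ctrl-F and 8.28 and 7.82 in ODNcap-F.

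Of the B cell genes, Cd79a, a chain of the B cell receptor, differed by -0.27 and the transcription factor Pax5 by -0.22, both separated, and the median over 16 members was -0.04. Of the 15 T cell genes, Icos, a costimulator of follicular and regulatory T cells, was at 10.37 and 10.51 against 10.12 and 9.96. The median of that list was -0.10, and 0.04 without ODNcap-F mouse 2. Of 12 regulatory and IL-10 genes 9 were lower by their means, with a median of -0.03. Foxp3, the factor of regulatory T cells, differed by 0.26 and Il10 by 0.14, each without overlap of the feeds, while Tgfb1, a suppressive cytokine, the checkpoint receptor Lag3 and the cytokine subunit Ebi3 were separated on the lower side at -0.19, -0.17 and -0.11.

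The receptor of the ODN and most genes of its pathway had similar levels in both feeds. Tlr9 stood at 10.06 and 9.94 in Ctrl-F and 9.96 and 9.998 in ODNcap-F, a difference of -0.02 ± 0.08 (SE). Of 19 endosomal nucleic acid sensing genes 2 were separated and higher and 5 separated and lower, where 17% and 18.6% of all genes were. Their median was -0.06. Myd88, the adaptor of TLR9, was at 11.77 and 11.79 against 11.67 and 11.71, and Traf6, a ligase downstream of it, was at 8.14 and 8.13 against 7.81 and 7.98, although its other probe differed by 0.10 in the opposite direction. Irf7, the interferon regulatory factor of this pathway, showed 12.75 and 12.01 against 12.41 and 13.50. ODNcap-F mouse 2 was the highest and the other ODNcap-F mouse lay between the Ctrl-F mice.

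Interferon-stimulated genes followed the same order of mice, and 18 of 20 were higher in ODNcap-F by their means. Of the 20, 0 were separated in either direction, where 17% of all genes were separated and higher and 18.6% lower. The list mean was 10.43 and 9.97 in Ctrl-F and 10.15 and 10.72 in ODNcap-F. Ifit1 measured 7.99 and 7.27 against 7.49 and 9.03, and Isg15 12.24 and 11.73 against 11.75 and 12.93. The median difference of 0.22 therefore came with more spread within each feed than between them, and it was -0.03 without ODNcap-F mouse 2. Th1 and cytotoxic genes had a median of 0.10. Ifng, the defining cytokine of Th1 cells, was at 7.37 and 7.32 in Ctrl-F and 7.57 and 7.59 in ODNcap-F, a difference of 0.23 ± 0.13 (SE) with separated groups. Both Cap-F mice were at or above those levels, at 7.84 and 7.59. By quantitative PCR in more mice, the paper reported Ifng raised in Ctrl-F over NT and near baseline in ODNcap-F. That is the opposite order of the 2 feeds. The lytic protease Gzmk, above background in only 1 Ctrl-F mouse, differed by 0.70, or 0.19 after normexp. Il12b, a subunit of IL-12, was at least 1.39-fold higher in ODNcap-F. Its log2 difference of 0.50 was only 0.10 after normexp, a smaller fold than this bound. Il12rb2 was not above background in either feed, so no fold is given.

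Saa1 and Saa3, acute-phase amyloid genes that epithelium and macrophages express after IL-22 and other signals, were higher in ODNcap-F. Saa1 measured 11.85 and 11.94 in Ctrl-F and 12.74 and 12.34 in ODNcap-F, a difference of 0.64 ± 0.16 (SE, adjusted p = 0.670 in limma). Saa3 measured 14.46 and 14.34 against 15.17 and 14.72. For both genes the Cap-F mice were below the Ctrl-F mice, Saa1 at 11.71 and 11.38 and Saa3 at 14.22 and 13.96. Lcn2 and Ltf, iron-binding antimicrobial proteins, differed by 0.36 and 0.38 with separated groups, and the neutrophil chemoattractants Cxcl2 and Cxcl1 by 0.75 and 0.42, with Cxcl2 at 0.29 after normexp. S100a8 and S100a9 of neutrophils overlapped, at differences of -0.09 and -0.22, and the granule genes Ngp and Mpo and the cytokine Il1b were separated on the lower side at -0.55, -0.28 and -0.26. Of 15 neutrophil genes, which include Cxcl1, Cxcl2 and Ltf, 10 were lower by their means, with a median of -0.16 that was 0.04 without ODNcap-F mouse 2. Il22 itself was not kept because it was not above background in both mice of any group. Its receptor chain Il22ra1 differed by 0.09, or -0.03 after normexp, and Extl3, a receptor of REG proteins, by 0.05. By quantitative PCR in more mice, the paper reported both reduced in Ctrl-F, with Il22ra1 restored and Extl3 near NT in ODNcap-F. Differences of that kind were not seen on these arrays. The decoy Il22ra2 was not above background in either feed. Of 16 genes of IL-22 and epithelial defence 5 were separated and higher and 2 separated and lower, where 17% and 18.6% of all genes were. Il22ra2 was among the lower ones.

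Some macrophage genes were lower in the ODNcap-F lungs. Gpnmb, a glycoprotein of lipid-laden macrophages, was at 11.60 and 11.48 in Ctrl-F and 10.88 and 10.43 in ODNcap-F, a difference of -0.88 ± 0.28 (SE, adjusted p = 0.736 in limma). The integrin Itgax and the lipid receptor Trem2 differed by -0.38 and -0.35, and Cd68 and Fabp5 by -0.26 and -0.23, each with separated groups. Cap-F mouse 1 kept the Ctrl-F level of Gpnmb at 11.61, and mouse 2 was at 10.80. Of 18 macrophage genes 6 were separated and lower and 2, Mrc1 and Chil3, separated and higher by 0.11 and 0.05. Of all genes, 18.6% were separated and lower and 17% separated and higher. The complement genes C1qa, C1qb and C1qc, also of macrophages, overlapped at differences of -0.11, 0.00 and -0.04. The median was -0.08.

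Cell cycle genes were slightly lower in the ODNcap-F lungs, with 20 of 23 lower by their means and 16 of 23 separated, where 18.6% of all genes were separated on that side. Bub1b, a kinase of the spindle checkpoint, measured 8.71 and 8.62 in Ctrl-F and 8.26 and 8.36 in ODNcap-F, a difference of -0.36 ± 0.08 (SE, adjusted p = 0.649 in limma). The mitotic cyclins Ccnb1 and Ccnb2 differed by -0.26 and -0.23, the mitotic kinase Aurka by -0.22 and the spindle motor Kif11 by -0.22. All of these had separated mice. The replication genes Mcm3, Mcm5, Pcna, Rrm2 and Tyms lay between -0.05 and 0.04 and overlapped, as did Mki67 at -0.07. Mcm2, another replication gene, was separated at -0.08. Differences ran from -0.36 to 0.04 over the list, with a median of -0.14. The list mean was 10.81 and 10.77 in Ctrl-F, 10.66 and 10.65 in ODNcap-F and 10.67 and 10.64 in Cap-F, against 7.83 and 7.85 in NT. Both particle feeds thus lay at 1 level. They also shared a slide row that did not hold Ctrl-F, so feed and row cannot be told apart here.

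Promoter windows were held for 21 of these genes. The letters CCAAT, which NF-Y binds, occurred on either strand in a window of 19 of them (90.5%), against 37.4% of all windows. TTTGAA, the core of the cell cycle homology element, occurred in 13 (61.9%), against 17.9%. Here too genes are set against windows. The genes were listed by function, so these shares do not bear on the feed. The windows of Bub1b and Ccnb2, the 2 separated members with the largest differences that hold both, are given 5′ to 3′ with both sets of letters in capitals, in either orientation, on the plus strand at chr2:118597961-118598260 and on the minus strand at chr9:70421505-70421804 (GRCm38.p6).
Bub1b: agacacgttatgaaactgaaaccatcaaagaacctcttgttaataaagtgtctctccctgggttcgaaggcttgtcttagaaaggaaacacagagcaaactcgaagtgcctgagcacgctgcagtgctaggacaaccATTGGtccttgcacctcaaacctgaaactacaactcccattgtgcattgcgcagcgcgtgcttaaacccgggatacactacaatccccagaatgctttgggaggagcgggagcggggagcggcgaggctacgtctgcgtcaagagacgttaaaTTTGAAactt
Ccnb2: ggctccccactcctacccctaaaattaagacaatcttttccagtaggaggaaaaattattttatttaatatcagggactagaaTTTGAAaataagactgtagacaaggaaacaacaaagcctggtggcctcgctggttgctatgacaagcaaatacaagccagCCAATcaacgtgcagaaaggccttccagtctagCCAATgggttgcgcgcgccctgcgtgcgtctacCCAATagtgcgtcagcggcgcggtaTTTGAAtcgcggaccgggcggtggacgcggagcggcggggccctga

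Structural cells of the lung gave small differences. Alveolar type 2 genes had a median of -0.01, alveolar type 1 genes of 0.10 with 14 of 15 higher by their means, and capillary endothelium of 0.06. Ctrl-F mouse 1 set the direction of the latter lists, since without it the median was -0.02 for alveolar type 1, with 7 of 15 higher, and -0.06 for endothelium, with 6 of 17 higher. In the endothelium Tbx2, a transcription factor, differed by 0.30 and Kdr, a receptor of VEGF, by 0.19, both separated. Of 20 fibroblast and matrix genes 8 were separated and higher and 1, Fn1, separated and lower, where 17% and 18.6% of all genes were. Their median was 0.09, and -0.01 without Ctrl-F mouse 1. Lum, a collagen-binding proteoglycan, measured 6.39 and 6.30 in Ctrl-F and 7.56 and 8.17 in ODNcap-F, a difference of 1.52 ± 0.53 (SE). Dcn, another proteoglycan, measured 11.63 and 10.88 against 11.89 and 12.03, a difference of 0.71 that was 0.33 without Ctrl-F mouse 2. Sfrp4, a secreted Wnt antagonist, stood at 4.03 and 4.76 against 5.02 and 6.37, a difference of 1.30 that was 0.62 without ODNcap-F mouse 2 and 0.49 after normexp. The collagen Col3a1 and the matrix protein Postn were separated at 0.19 and 0.18, and Col1a1 overlapped at 0.12. In basal and squamous epithelium 1 of 8 genes was separated, the keratin Krt15 at 1.14, or 0.31 without ODNcap-F mouse 2, and the median was 0.04. In smooth muscle, Hhip, an inhibitor of hedgehog signals, was at 10.71 and 10.57 against 10.98 and 11.05, and the contractile genes Acta2 and Cnn1 overlapped, with the probes of Acta2 differing in sign.

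Among lipid mediator enzymes, Pla2g10, a secreted phospholipase of airway epithelium, stood at 5.18 and 4.65 in Ctrl-F and 5.78 and 7.26 in ODNcap-F. The difference was 1.60, but 0.86 without ODNcap-F mouse 2 and 0.83 after normexp. Ptgs2, the inducible cyclooxygenase, differed by 0.33, from 7.32 and 7.22 to 7.58 and 7.63. Complement factor B (Cfb) and C4b differed by 0.39 and 0.31 with separated groups, while the median of 21 complement genes was 0.00. Of 15 cytochrome P450 genes 8 were separated and higher and 0 lower, where 17% and 18.6% of all genes were, with a median of 0.23. Cyp26b1, which degrades retinoic acid, was at 9.30 and 8.88 against 10.13 and 9.75, and both Cap-F mice were higher still, at 11.96 and 11.01.

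Stress and clock genes had median differences near 0. Heat shock genes were lower in ODNcap-F by their means for 17 of 21, but 0 were separated, where 17% of all genes were on the higher side and 18.6% on the lower. Hspa1b, an inducible HSP70, measured 11.16 and 11.31 in Ctrl-F and 9.47 and 11.52 in ODNcap-F, and Hspa1a followed the same order, with ODNcap-F mouse 1 low and mouse 2 high. Both Cap-F mice were at the low level, 9.38 and 9.41 for Hspa1b. These paralogs are near-identical and their probes may share signal. Clock genes had a median of 0.01, with 6 of 18 separated and higher and 1, Nfil3, separated and lower, where 17% and 18.6% of all genes were. Among them were Per3, Dbp, Tef and Cry2, at differences from 0.28 to 0.33. Glucocorticoid and metallothionein genes had a median of 0.01, and immediate early genes of 0.06, with Atf3 at -0.42 and Ier3 at 0.41 each separated.

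The named genes with the smallest p among those separated beyond 2-fold were mostly near background. On the higher side they were Unc13a, Mlip, Tcf24, Kif17, Cap2, Cilp2, Shisa3, Scn10a, Slc9b1, Slc47a1, Pnma1 and Lmntd1. Unc13a, a synaptic vesicle priming protein, had the smallest adjusted p of all genes. It was above background in both ODNcap-F mice only, at 5.45 and 4.77, and lay between 1.87 and 1.90 in the other 6 mice, so that it was at least 2.13-fold higher. It was thus kept only through ODNcap-F, and its p rests in part on the small spread of mice below background. Mlip, a lamin-interacting protein of muscle, was at least 1.95-fold higher and Tcf24 at least 1.76-fold. Both Cap-F mice had Mlip at 4.87 and 4.97. After background correction by normexp the log2 differences of Unc13a, Mlip and Tcf24 were 0.58, 0.66 and 0.29, which are smaller folds than these bounds. For genes this dim, the offset of 50 in normexp shrinks the differences by itself. Scn10a, Slc9b1, Pnma1 and Lmntd1 were below background in both feeds, so no fold is given. Slc47a1, a transporter that exports organic cations, was the single gene of these 12 above background on all 4 arrays, at 4.70 and 4.55 in Ctrl-F and 5.49 and 5.93 in ODNcap-F (adjusted p = 0.637 in limma), and background correction by normexp brought its difference of 1.08 to 0.42.

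On the lower side these genes were Eya4, Gja3, Calr4, Glod5, Alb, Ankrd33, Cacna1e, Syt7, Hbq1a, Fam219aos, Vmn2r43 and Krtap19-2. Glod5, a glyoxalase domain protein, was the single one above background on all 4 arrays. It measured 8.22 and 8.25 in Ctrl-F and 7.34 and 7.09 in ODNcap-F, a difference of -1.02 ± 0.19 (SE, adjusted p = 0.544 in limma), with Cap-F at 7.34 and 6.79 and NT below background. Eya4, a transcriptional coactivator, was at least 1.52-fold lower, but its log2 difference was -0.23 after background correction by normexp, a smaller fold than this bound. Gja3, Calr4, Ankrd33, Syt7 and Hbq1a were below background in both feeds.

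Outside the lists and the ranking by p, some brighter genes separated beyond 2-fold were chosen after their values were seen. Atp2c2, a calcium pump of the secretory pathway, was at 7.10 and 6.81 in Ctrl-F and 7.76 and 8.33 in ODNcap-F. Capn9, a calpain of mucus-secreting cells, was at 9.16 and 8.60 against 9.51 and 10.37. Tacr1, the receptor of substance P, was at 6.06 and 5.52 against 6.37 and 7.86. The Cap-F mice stood at 7.25 and 8.28 for Atp2c2, at 8.91 and 10.38 for Capn9 and at 4.50 and 7.43 for Tacr1, with mouse 2 the higher in each. Rpl39l, a ribosomal protein paralog, ran the other way, at 6.92 and 6.17 in Ctrl-F and 5.42 and 5.43 in ODNcap-F.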

How the data were processed

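Lung RNA of 8 mice was hybridized to 1-colour Agilent mouse arrays on 1 slide. The authors deposited scanner files with spot intensities from Agilent Feature Extraction 11.0 (per the submitters' processing notes), background-subtracted by that software, and a table of log2 values, quantile normalized and filtered to 32312 probes. Control spots and 792 flagged spot values were left out, and 0 spots were saturated. Spots of a probe were averaged, log2 values of the processed intensity were quantile normalized over the 8 arrays, and they differed from the deposited log2 table by a median of 3.23e-07 and by at most 0.125. Of the probes, 58.3% could be named through RefSeq. The brightest kept probe stands for a gene.

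ODNcap-F was compared with Ctrl-F in limma 3.58.1 (R 4.3.3; version 1.17.8 of the package data.table) fitted on all 4 groups, with 4 residual degrees of freedom and Benjamini-Hochberg adjustment over all kept probes. The script was tested on simulated data. The local-pooled-error test that the study's methods name was rebuilt from its definition as an alternative. Where no array of 1 group was above background, the fold, written as at least N-fold, is taken on each of its arrays against the lowest intensity well above background or the probe's own value, whichever was higher. Such a fold is a bound on these intensities only, not on those after normexp. Named genes were up to 12 per direction with the smallest p among named genes separated by over 2-fold, up to 5 members of each list by size of the difference, defining markers of lists, and the cytokine, receptor, mucin and fat genes of the study's question. Members of the lists that the text names beyond these were chosen after their values were seen. The comparison, the gene lists and the genes named were chosen with earlier results of these data known. Other settings tried were the scaling, background correction, deposited table, probe filters, replicate block, variance trend, a fit on 4 arrays, each array left out and the test. Some genes of the lists are not reported here.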

Additional observations from a re-analysis of the deposited data

How the results depend on the processing

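Counted by any probe, the number of genes called by limma stayed at 0 under 75th percentile scaling, normexp background correction, the deposited table, the filter to probes above background on all 8 arrays, the variance trend and the fit on 4 arrays. It was 9 with no filter on dim probes, where Unc80, Tbx15 and B230112J18Rik were the ones with a gene symbol. Leaving out each array gave between 0 and 5 calls, 1 with Ctrl-F mouse 2 left out, 5 with ODNcap-F mouse 1 left out and 4 with its partner left out, where the lone mouse is assumed to vary like the other groups. The difference of Unc13a was 2.89 without ODNcap-F mouse 1 and 3.57 without mouse 2. Unc13a was kept only through ODNcap-F and was below background in the other groups. Their small spread does not measure that of the ODNcap-F mice. Unadjusted p gave 223 calls. The local-pooled-error test gave 138 on the intensities, more than the 93 and 40 counted by the brightest probe because here any probe of a gene could make the call, and, on the deposited table, 69 with adjusted and 77 with unadjusted p. The cause of these differences was not tested.

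Separation beyond 2-fold depended on dim probes. Against 183 higher and 100 lower genes, there were 39 and 19 after normexp, 49 and 13 in the deposited table, 524 and 420 with no filter, and 48 and 13 with probes above background on all 8 arrays. The share of higher genes among them was 64.7% in the main setting, 66.9% after 75th percentile scaling and 79.0% in the deposited table.

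The replicate numbers are shared by the groups, but nothing in the labels ties a number to a shared batch, and the deviations of same-numbered mice in Ctrl-F and ODNcap-F correlated at 0.0583 across probes, which are not independent replicates. The highest value among the pairs of groups was 0.161, for Cap-F and ODNcap-F. With the replicate number as a block, limma called 0 genes.

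Of 41 list medians, 12 changed sign when Ctrl-F mouse 1 was left out and 7 when its partner was. For ODNcap-F, 6 changed sign with mouse 1 left out and 11 with mouse 2 left out. The medians of the mucous, club, ciliated and fat cell lists were above 0 in each of these, and that of the cell cycle list below 0. Of 220 named genes, normexp moved 58 by more than the spread between mice, and 2 changed sign. The offset of 50 in normexp shrinks the changes of dim genes by itself, so the 58 are no independent check of those changes.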
